A study of Mus musculus with 8 samples.

Results

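The Notch pathway was examined in RNA-seq counts of the P1 mouse cortex through 10 genes picked by name from the 48709 genes listed: the receptors *Notch1*, *Notch2* and *Notch3*, the ligands *Dll1*, *Dll3*, *Jag1* and *Jag2*, and the transcription factors *Hes1*, *Hes5* and *Hey1*. All 10 were found by symbol, and all 10 were among the 16287 genes that passed the filter on low counts. The 8 libraries were made from whole cortical tissue, 4 from control and 4 from dcKO_Nex-Cre samples. The dcKO_Nex-Cre mutants carried floxed BAF155 (*Smarcc1*) and BAF170 (*Smarcc2*), 2 core subunits of the BAF chromatin remodeling complex, together with Nex-Cre, a line in which Cre acts in postmitotic cortical projection neurons. Controls were BAF155fl/+, BAF170fl/+ and Cre negative, so that they carried floxed alleles but no Cre, and an effect of Nex-Cre itself cannot be told apart from that of the deletions. All animals had the C57BL6/J background. Cells without Nex-Cre activity, such as radial glia and vessel cells, keep both genes in this model. The labels do not say that the samples of a group came from separate animals, so the p-values measure the spread between these samples.

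Notch receptors sit in the membrane and are bound by Delta-like and Jagged ligands of a neighboring cell. Binding exposes the receptor to proteases and to gamma-secretase, which free its intracellular domain, and this domain joins RBPJ and Mastermind proteins in the nucleus to switch on *Hes* and *Hey* genes. In the developing cortex the pathway is best known for keeping radial glia as progenitors through *Hes1* and *Hes5*, with ligands offered by newborn neurons and intermediate progenitors, and it also acts in vessels, where *Notch3* marks mural cells.

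Total counts were 18737230 to 24036915 per control library and 17958641 to 35191912 per dcKO_Nex-Cre library. Levels are given as CPM, read counts scaled to the TMM-normalized size of their library. *Smarcc2* was at 56.9% and *Smarcc1* at 69.2% of the control mean in the mutant cortex (edgeR adjusted p = 0.00267 and 0.0348), so both targeted genes were lower in the libraries labeled mutant. Control replicate 2 and dcKO_Nex-Cre replicate 4 stood apart from the other libraries of their groups. The chi-square per degree of freedom against their own group was 33.91 to 42.23 for control replicate 2, where the other control pairs gave 3.77 to 11.37, and 38.15 to 81.03 for dcKO_Nex-Cre replicate 4, where the other mutant pairs gave 10.77 to 22.83. These 2 libraries also had the highest mitochondrial share of their groups, at 6.87% and 6.15%. The file names put all controls and dcKO_Nex-Cre replicates 1 and 2 under lane tag 2 and dcKO_Nex-Cre replicates 3 and 4 under lane tag 8. Each fold change was therefore also fitted without both outlying libraries and within lane tag 2 (4 control and 2 dcKO_Nex-Cre libraries). Markers of excitatory neurons, the cells in which Nex-Cre acts, were all detected, with a summed level of 997 to 1068 CPM in the control and 947 to 1114 CPM in the mutant cortex.

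None of the 10 Notch genes passed an adjusted p of 0.05 in edgeR's quasi-likelihood test, where 0.884% of all tested genes did. The smallest adjusted p was 0.0892, for the ligand *Dll3*, which was at 143% of its control level. At an unadjusted p under 0.05, 3 of the 10 genes were higher in the dcKO_Nex-Cre cortex (*Dll3*, *Jag1* and *Notch2*) and 0 were lower. The share of all tested genes at this threshold was 13.6%, with 6.59% on the higher and 7.05% on the lower side. limma-voom also called 0 of the 10 genes (0.798% of all tested genes), and DESeq2's Wald test called 1, *Dll3* (2.78%, with 1.23% on the higher side). The fold change was above 0 for 7 of the 10 genes, *Hes1* at 0.00137 among them, and for 50.9% of all tested genes. Without both outlying libraries it was above 0 for 5 of the 10 genes and below for 5. Of all 16330 genes tested there, 8359 were above 0 and 7971 below. The median log2 fold change with all libraries was 0.082 over the 10 genes and 0.004 over all tested genes. Without both outlying libraries these medians were 0.089 and 0.008. By role, with all libraries, the median was 0.173 for the 3 receptors (-0.07 to 0.23) and 0.163 for the 4 ligands (-0.24 to 0.51). For the 3 transcription factors it was 0.001 (-0.04 to 0.06). In bulk tissue such values do not separate fewer or more cells of a type from less or more RNA per cell.

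**Figure D1:**
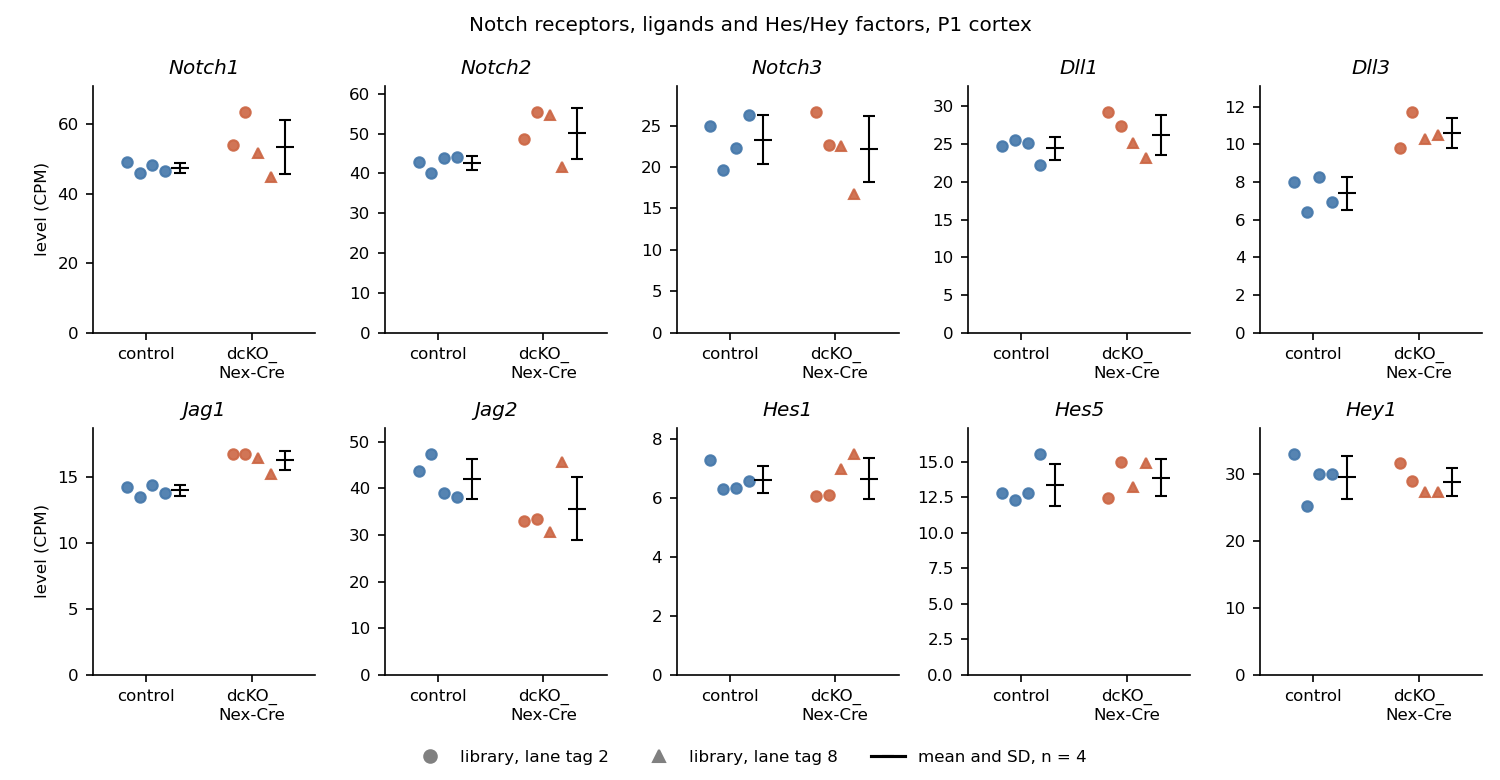
Level of each gene in every library, in CPM on a linear axis from 0, for control (blue) and dcKO_Nex-Cre (red). Circles are libraries of lane tag 2 and triangles libraries of lane tag 8, and the black bars give the mean and SD (n = 4). Only *Dll3* and *Jag1* have every mutant library above every control library.

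Among the receptors, *Notch1* (ENSMUSG00000026923, GRCm38 chromosome 2, 26457903 to 26516663, minus strand), the main receptor of cortical progenitors, had control levels of 49.1, 46.0, 48.2 and 46.6 CPM and mutant levels of 54.0, 63.4, 51.8 and 44.7 CPM in replicates 1 to 4. The controls lay close together, whereas the mutant libraries spread on both sides of them, with replicate 2 highest and replicate 4 below every control. The means were 47.5 ± 1.44 and 53.5 ± 7.70 CPM (SD, n = 4), which gave a log2 fold change of 0.17 (standard error 0.10, edgeR adjusted p = 0.462). Without dcKO_Nex-Cre replicate 2 it was 0.08 (edgeR adjusted p = 0.767), without both outlying libraries 0.24 (edgeR adjusted p = 0.0739) and within lane tag 2 0.31 (edgeR adjusted p = 0.0913).

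*Notch2* (ENSMUSG00000027878, chromosome 3, 98013527 to 98150361, plus strand), a receptor of radial glia and many other cells, was at 42.8, 40.1, 43.8 and 44.0 CPM in the control and at 48.7, 55.3, 54.7 and 41.6 CPM in the mutant libraries. Mutant replicates 1 to 3 exceeded every control, and replicate 4 fell within the control range. The means were 42.7 ± 1.77 and 50.1 ± 6.39 CPM (SD, n = 4), which gave a log2 fold change of 0.23 (standard error 0.10, edgeR adjusted p = 0.321). Without dcKO_Nex-Cre replicate 4, *Notch2* was called higher (log2 fold change 0.31, edgeR adjusted p = 0.0317). It was also called with control replicate 2 left out as well (0.29, edgeR adjusted p = 0.0239). *Notch2* was not called within lane tag 2 (0.29, edgeR adjusted p = 0.102) or without control replicate 2 alone (0.21, edgeR adjusted p = 0.444).

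*Notch3* (ENSMUSG00000038146, chromosome 17, 32120820 to 32166852, minus strand) is the receptor that is typical of pericytes and vascular smooth muscle, and it is also made by neural progenitors. Its levels were 25.0, 19.7, 22.3 and 26.3 CPM in the control and 26.6, 22.7, 22.6 and 16.8 CPM in the mutant cortex. The groups overlapped, and the lowest library of each group was the one that stood apart. Means of 23.3 ± 2.95 and 22.2 ± 4.0 CPM (SD, n = 4) gave a log2 fold change of -0.07 (standard error 0.14, 95% interval -0.37 to 0.24, edgeR adjusted p = 0.849), which became 0.08 within lane tag 2. The 7 mural cell markers were all detected, and their summed level was 167 to 233 CPM in the control, lowest in control replicate 2, and 169 to 194 CPM in the mutant cortex. By gene, 4 had fold changes above 0 and 3 below, with a median log2 fold change of 0.089. *Rgs5*, which made up most of the sum, was at -0.41 (edgeR adjusted p = 0.127). The part of mural cells in the *Notch3* values was not tested.

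Among the ligands, *Dll3* (ENSMUSG00000003436, chromosome 7, 28293553 to 28302238, minus strand) stood furthest from its control level. It encodes a divergent Delta-like protein that, unlike the other ligands, does not activate receptors on neighboring cells and dampens Notch signaling in the cell that makes it. Control levels were 8.01, 6.40, 8.26 and 6.96 CPM, and mutant levels were 9.83, 11.7, 10.3 and 10.5 CPM. Every mutant library was above every control library, including both libraries that stood apart. The means were 7.41 ± 0.876 and 10.6 ± 0.795 CPM (SD, n = 4), with p = 0.0286 in a two-sided exact permutation test, the smallest p that 4 libraries against 4 allow. Any gene whose groups do not overlap gets this p, which is not adjusted for the number of genes. The log2 fold change was 0.51 (standard error 0.12, 95% interval 0.24 to 0.78, edgeR adjusted p = 0.0892). It was 0.46 without both outlying libraries (edgeR adjusted p = 0.0402), 0.52 without dcKO_Nex-Cre replicate 4 alone (edgeR adjusted p = 0.0402) and 0.54 within lane tag 2 (edgeR adjusted p = 0.0933). DESeq2's Wald test gave 0.51 with an adjusted p of 0.0118, so the call depended on the tool and on 1 library, while the size of the difference lay between 0.46 and 0.57 in the 8 fits that omitted a single library. *Dll3* had 117 to 339 counts per library.

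*Dll3* is made by newborn neurons, intermediate progenitors and oligodendrocyte precursors. The 5 oligodendrocyte precursor markers all had higher means in the mutant cortex, with a summed level of 173 to 252 CPM in the control and 252 to 308 CPM in the mutant libraries, and 1 of the 5, *Cspg4*, passed the test (log2 fold change 0.56, edgeR adjusted p = 0.0355). The 4 intermediate progenitor markers also all had fold changes above 0 (median log2 fold change 0.196), with none past the test. They summed to 78.3 to 107 CPM in the control and 80.8 to 133 CPM in the mutant libraries. No marker of either list was at 0 in any library. The part of these cells in the *Dll3* values was not tested.

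*Jag1* (ENSMUSG00000027276, chromosome 2, 137081456 to 137116644, minus strand), a Jagged ligand of progenitors and endothelial cells, was the other gene whose groups did not overlap. It was at 14.2, 13.5, 14.4 and 13.8 CPM in the control and at 16.7, 16.7, 16.4 and 15.2 CPM in the mutant cortex, with replicate 4 lowest. The mutant mean was 116% of the control mean (14.0 ± 0.406 against 16.3 ± 0.714 CPM, SD, n = 4), for a log2 fold change of 0.22 (standard error 0.09, edgeR adjusted p = 0.294). The log2 fold change of *Jag1* was 0.24 without both outlying libraries (edgeR adjusted p = 0.0966) and 0.26 within lane tag 2 (edgeR adjusted p = 0.167). The exact permutation test gave p = 0.0286, as it must for groups without overlap. Mutant libraries that were all above the controls were found for 2 of the 10 genes and for 3.99% of all tested genes, and libraries that were all below them for 0 of the 10 and for 4.01%. All 7 endothelial markers were detected and had fold changes above 0 (median log2 fold change 0.160), with none past the test. Their sum was 112 to 168 CPM in the control, lowest in control replicate 2, and 144 to 189 CPM in the mutant cortex, lowest in replicate 4. Their part in the *Jag1* values was not tested.

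*Jag2* (ENSMUSG00000002799, chromosome 12, 112907819 to 112929776, minus strand), the other Jagged ligand, ran the opposite way in most libraries. Its levels were 43.8, 47.3, 39.0 and 38.1 CPM in the control and 33.0, 33.4, 30.6 and 45.6 CPM in the mutant cortex. Replicates 1 to 3 of the mutant were below every control, and replicate 4 was above 3 of the 4 controls. The means were 42.0 ± 4.31 and 35.7 ± 6.77 CPM (SD, n = 4), and the log2 fold change was -0.24 (standard error 0.13, edgeR adjusted p = 0.421). Without dcKO_Nex-Cre replicate 4 *Jag2* was called lower, at -0.37 (edgeR adjusted p = 0.0331), and without both outlying libraries at -0.31 (edgeR adjusted p = 0.0227). It was not called within lane tag 2 (-0.34, edgeR adjusted p = 0.107) or without control replicate 2 alone (-0.17, edgeR adjusted p = 0.659). The 5 interneuron markers summed to 554 to 753 CPM in the control, highest in replicate 2, and to 517 to 692 CPM in the mutant cortex, highest in replicate 4. *Jag2* and this sum were thus both highest in the libraries that stood apart. Not every marker ran this way among the mutant libraries. In replicate 4, *Gad2*, *Dlx1* and *Lhx6* were highest, whereas *Gad1* was lowest (105 CPM). *Dlx2* was highest in replicate 2 (57.6 CPM, against 46.6 CPM in replicate 4). The part of interneurons in the *Jag2* values was not tested.

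*Dll1* (ENSMUSG00000014773, chromosome 17, 15367354 to 15376872, minus strand), the Delta-like ligand of committed progenitors and newborn neurons, had control levels of 24.8, 25.6, 25.1 and 22.2 CPM and mutant levels of 29.2, 27.4, 25.2 and 23.1 CPM. The groups overlapped, and mutant replicates 1 and 2 were the highest of the 8 libraries. The log2 fold change was 0.11 (standard error 0.09, edgeR adjusted p = 0.633) and 0.19 without both outlying libraries (edgeR adjusted p = 0.162). Of its exonic length, 20.6% overlaps *A930024N18Rik* on the opposite strand, a noncoding gene with a mean of 77.4 counts where *Dll1* had 607.6, and since the library kit does not mark strand, reads from the shared stretch cannot be told apart.

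**Figure D2:**
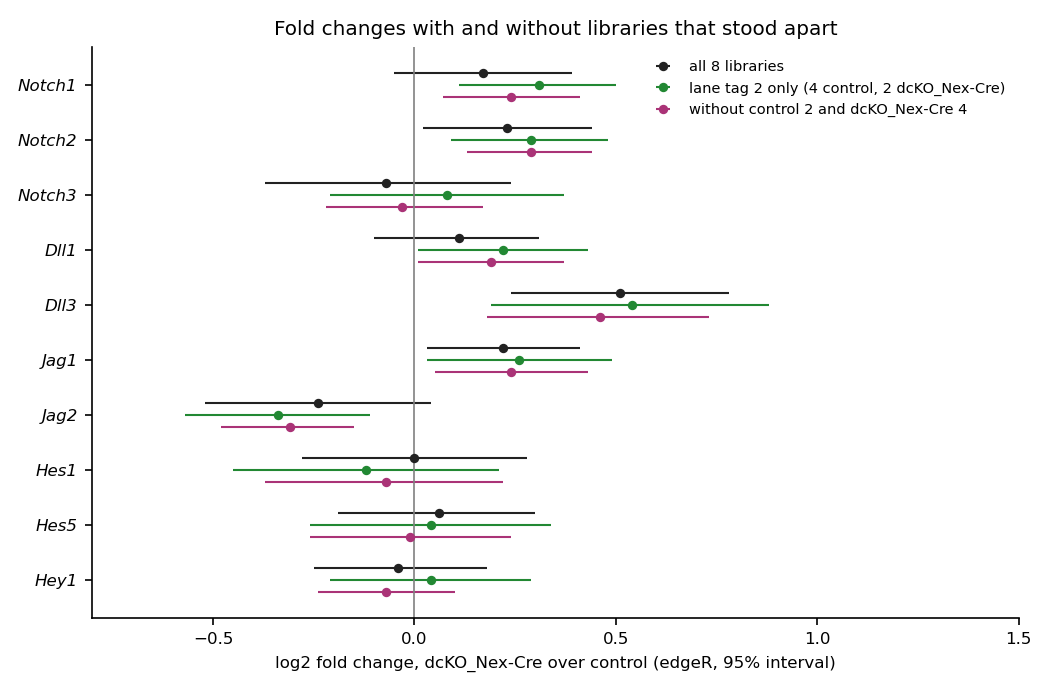
Log2 fold change of each gene, dcKO_Nex-Cre over control, with 95% intervals from edgeR, for all 8 libraries (black), lane tag 2 only (green) and without control replicate 2 and dcKO_Nex-Cre replicate 4 (purple). *Dll3* lies at 0.46 to 0.54 in the 3 fits, *Jag2* lies below 0 in each, and the points of *Hes1*, *Hes5*, *Hey1* and *Notch3* lie near 0 or change sign.

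The transcription factors that Notch switches on showed no difference past the test. *Hes5* (ENSMUSG00000048001, chromosome 4, 154960923 to 154962371, plus strand), a repressor of neuronal genes in radial glia, is the classical Notch target of the cortex. Its promoter is shown with matches to GTGGGAA, a form of the site for RBPJ, the DNA-binding partner of Notch. In RefSeq, the 250 bases before the *Hes5* start on the plus strand of GRCm38.p6, chr4:154960673-154960922, read as follows, with GTGGGAA or its reverse complement TTCCCAC in capitals.

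Hes5: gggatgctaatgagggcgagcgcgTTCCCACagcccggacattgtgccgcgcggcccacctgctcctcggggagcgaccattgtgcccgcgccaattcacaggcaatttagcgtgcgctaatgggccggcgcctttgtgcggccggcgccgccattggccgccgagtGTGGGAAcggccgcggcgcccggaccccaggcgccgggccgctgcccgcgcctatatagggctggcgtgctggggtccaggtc

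The 2 matches lie on opposite strands, from 226 to 220 and from 83 to 77 bases before the start. Of 32851 promoter windows of this length, 5.42% held GTGGGAA on either strand and 0.161% held it 2 or more times. RefSeq windows were matched for 8 of the 10 genes, with 9 starts, and those of *Notch1*, *Notch2*, *Notch3*, *Dll1*, *Dll3*, *Jag1* and *Jag2* held none. These are matches of letters, and they were not tested for binding or for acting as a pair.

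*Hes5* was at 12.8, 12.3, 12.8 and 15.5 CPM in the control and at 12.4, 15.0, 13.2 and 14.9 CPM in the mutant cortex. The ranges lay almost on top of each other, and control replicate 4 was the highest library. Its log2 fold change was 0.06 (standard error 0.11, 95% interval -0.19 to 0.30, edgeR adjusted p = 0.845). The noncoding gene *Gm20421* overlaps 31.8% of its exonic length on the opposite strand and had a mean of 0.0 counts. Whether reads from the shared stretch were counted for *Hes5* or dropped is not known.

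*Hes1* (ENSMUSG00000022528, chromosome 16, 30064384 to 30067796, plus strand), the related repressor that Notch and other pathways induce, had control levels of 7.28, 6.29, 6.34 and 6.56 CPM and mutant levels of 6.06, 6.09, 6.97 and 7.47 CPM. The means were 6.62 ± 0.456 and 6.65 ± 0.690 CPM (SD, n = 4), which gave a log2 fold change of 0.00 (standard error 0.13, 95% interval -0.28 to 0.28, edgeR adjusted p = 0.997). The mutant libraries of lane tag 2 were both below every control and those of lane tag 8 were above at least 3 of the 4 controls, and within lane tag 2 the log2 fold change was -0.12 (edgeR adjusted p = 0.650).

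*Hey1* (ENSMUSG00000040289, chromosome 3, 8663359 to 8667256, minus strand), a Hes-related repressor of progenitors and vessels, was at 33.0, 25.2, 30.0 and 30.0 CPM in the control and at 31.7, 29.0, 27.4 and 27.3 CPM in the mutant cortex. All 4 mutant libraries lay inside the control range. The log2 fold change was -0.04 (standard error 0.10, 95% interval -0.25 to 0.18, edgeR adjusted p = 0.894). For these 3 factors the intervals together leave room for log2 fold changes from -0.28 to 0.30. The 11 radial glia and astrocyte markers were all detected and summed to 3133 to 3886 CPM in the control and 2842 to 3587 CPM in the mutant cortex, with 4 higher, 7 lower and none past the test. For 2 of the 11, every mutant library was below every control (4.01% of all tested genes), and for 0 above. These were *Fabp7*, the largest part of the sum (log2 fold change -0.50, edgeR adjusted p = 0.113), and *Hopx* (-0.35, edgeR adjusted p = 0.131).

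The lowest library was often the same for several of the 10 genes. Control replicate 2 was the lowest control for 8 genes and the highest for *Dll1* and *Jag2*. dcKO_Nex-Cre replicate 4 was the lowest mutant library for 6 genes (*Notch1*, *Notch2*, *Notch3*, *Dll1*, *Jag1* and *Hey1*) and the highest for *Jag2* and *Hes1*. With dcKO_Nex-Cre replicate 4 left out, 3 of the 10 genes passed an adjusted p of 0.05 in edgeR, *Notch2* and *Dll3* as higher and *Jag2* as lower, where 3.98% of all tested genes passed as higher and 3.74% as lower. The same 3 genes passed with control replicate 2 left out in addition, where the shares over all tested genes were 5.49% and 5.50%. Groups then did not overlap for 5 and 6 of the 10 genes, with 27.2% and 33.7% of all tested genes. Within lane tag 2, 0 of the 10 genes passed the adjusted threshold (1.48% of all tested genes), and 6 passed an unadjusted p of 0.05 (23.5%), 5 of them higher (11.7%) and *Jag2* lower (11.8%). Groups did not overlap there for 7 of the 10 genes and for 35.9% of all tested genes.

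**Figure D3:**
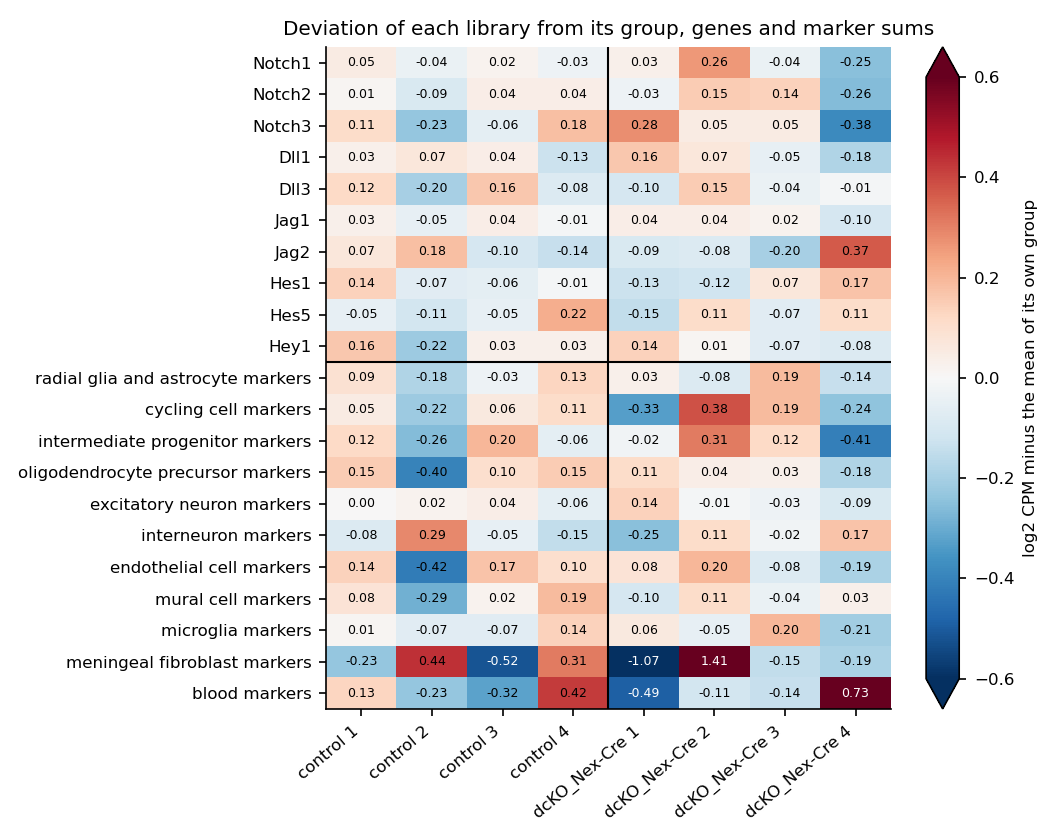
Deviation of each library from the mean of its own group, in log2 CPM, for the 10 Notch genes (top) and the summed levels of 11 marker lists (bottom; choroid plexus is left out). Columns are libraries, the colors end at -0.6 and 0.6, and the printed values continue beyond them. Control replicate 2 is low for *Notch3*, *Dll3* and *Hey1* and for oligodendrocyte precursor and endothelial markers, and dcKO_Nex-Cre replicate 4 is low for all 3 receptors and high for *Jag2*.

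To compare levels between genes, CPM was divided by the exonic length in kilobases (RPKM). In the control cortex the order of the means was *Hes5* (9.77 ± 1.06 RPKM, SD, n = 4), *Hey1* (9.05 ± 0.981), *Jag2* (6.04 ± 0.618), *Dll1* (5.79 ± 0.352), *Notch2* (3.96 ± 0.164), *Notch1* (3.34 ± 0.101), *Hes1* (3.25 ± 0.224), *Notch3* (2.88 ± 0.365), *Dll3* (2.60 ± 0.308) and *Jag1* (2.40 ± 0.0697). A target factor thus had the highest level per length, and ligands were found both near the top and at the bottom. Between neighbors in this order the control libraries overlapped except for *Hey1* and *Jag2*, *Dll1* and *Notch2*, and *Notch2* and *Notch1*. The exonic length joins all annotated exons of a gene, used or not, and the order depends on it. In control CPM, *Notch1* (46.0 to 49.1) was instead above *Notch2* (40.1 to 44.0). Their order per length rests on exonic lengths of 14232 and 10782 bases. In the mutant cortex the level of *Dll3* was 3.71 ± 0.279 RPKM (SD, n = 4), the rank of 9 in the control becoming 7, and *Dll1* at 6.22 ± 0.633 RPKM stood before *Jag2* at 5.12 ± 0.972 RPKM. *Hes5* and *Hey1* again came first, at 10.2 ± 0.935 and 8.83 ± 0.627 RPKM.

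**Figure D4:**
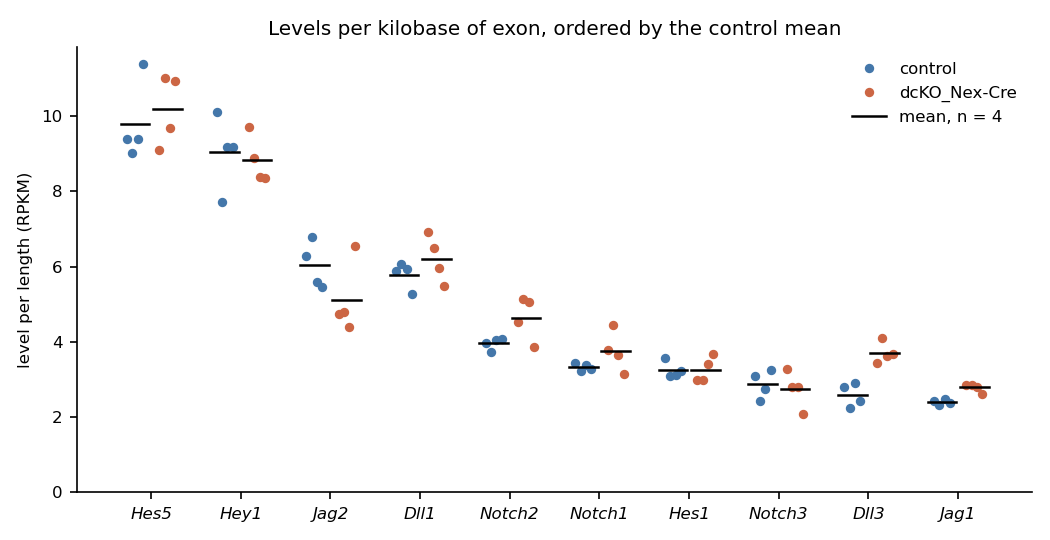
Level per kilobase of exon (RPKM, linear axis) of the 10 genes in every control (blue) and dcKO_Nex-Cre (red) library, ordered by the control mean. Black lines are group means (n = 4). *Hes5* and *Hey1* are highest in both groups, and *Dll3* is the gene whose mutant points lie furthest above its control points.

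A list of 46 other genes of the pathway was described in 8 role groups. Of these, 44 passed the filter on low counts, and *Hes2* and *Hes3* did not, with at most 2 and 4 counts in any library. None of the 44 passed an adjusted p of 0.05 in edgeR (background 0.884%). At an unadjusted p under 0.05, 3 were higher (*Adam17*, *Ncstn* and *Maml3*) and 2 lower (*Dlk2* and *Neurl1a*), where the shares of all tested genes were 6.59% and 7.05%, so that both counts were near the background. The fold change was above 0 for 27 of the 44 genes, and the median log2 fold change was 0.069, against 0.004 over all tested genes.

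*Neurl1a*, an E3 ubiquitin ligase that acts on Notch ligands and is made by neurons, stood furthest from its control level. It was at 36.4, 37.9, 29.4 and 36.3 CPM in the control and at 25.9, 25.5, 26.2 and 19.1 CPM in the mutant cortex, with all mutant libraries below all controls. The mutant mean was 69.1% of the control mean, for a log2 fold change of -0.53 (standard error 0.12, edgeR adjusted p = 0.0697). It passed without both outlying libraries (-0.39, edgeR adjusted p = 0.0163) and in DESeq2's Wald test (-0.52, adjusted p = 0.00575). Within lane tag 2 it did not pass (-0.44, edgeR adjusted p = 0.0738). The other ubiquitin ligases for ligands, *Mib1*, *Mib2* and *Neurl1b*, had log2 fold changes between 0.00 and 0.09.

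Of the 8 listed genes for receptor proteases and gamma-secretase, 4 had fold changes above 0 and 4 below. *Adam17*, a metalloprotease that can cut the receptor outside the membrane, was at 27.0, 26.7, 27.6 and 27.7 CPM in the control and at 32.6, 35.7, 32.6 and 28.6 CPM in the mutant cortex, without overlap (log2 fold change 0.25, standard error 0.08, edgeR adjusted p = 0.216). *Ncstn*, the gamma-secretase subunit for substrate docking, was chosen after its values were seen. It was at 84.5, 82.5, 95.8 and 87.8 CPM in the control and at 110, 103, 101 and 95.9 CPM in the mutant cortex, where replicate 4 was the lowest and just above the highest control. Its log2 fold change was 0.23 (edgeR adjusted p = 0.216). The other listed subunits lay on both sides of 0, *Psen2*, *Psenen*, *Aph1a* and *Aph1b* between -0.11 and -0.06 and *Aph1c* at 0.14.

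In the nuclear complex, 7 of 8 genes had fold changes above 0. *Maml3*, a Mastermind coactivator, was at 14.7, 15.1, 14.2 and 14.3 CPM in the control and at 16.3, 21.3, 16.1 and 17.2 CPM in the mutant cortex, without overlap (log2 fold change 0.29, standard error 0.11, edgeR adjusted p = 0.281). *Rbpj*, which binds DNA, was at 107% of the control level (log2 fold change 0.10). Without both outlying libraries, 4 of the 44 pathway genes passed the adjusted threshold in edgeR: *Adam17* (0.30) and *Ncstn* (0.23) were higher, and *Neurl1a* (-0.39) and *Dlk2* (-0.39) lower. In this fit 5.49% of all tested genes passed as higher and 5.50% as lower.

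In the other groups *Dlk2* was the only gene with an unadjusted p under 0.05 in edgeR. *Dll4*, the Delta-like ligand of endothelial cells, was at 8.70, 6.02, 8.01 and 8.28 CPM in the control and at 8.70, 9.12, 9.99 and 9.09 CPM in the mutant cortex (log2 fold change 0.25, standard error 0.13, edgeR adjusted p = 0.435). *Dlk2*, a Delta-like membrane protein outside the canonical ligands, gave -0.29 on the log2 scale (standard error 0.11, edgeR adjusted p = 0.287). *Poglut1*, which adds glucose to the receptors, had -0.13 (standard error 0.07, edgeR adjusted p = 0.427), whereas the other 5 glycosylation genes, among them the Fringe genes *Lfng*, *Mfng* and *Rfng*, had values from 0.06 to 0.19. *Nrarp*, a Notch target that promotes receptor turnover, was at 2.80 ± 0.848 CPM in the control and 1.96 ± 0.425 CPM in the mutant cortex (SD, n = 4), with only 29 to 82 counts per library (log2 fold change -0.51, standard error 0.25, edgeR adjusted p = 0.389). *Hes6*, a neuronal factor that opposes *Hes1*, was at 89.6 ± 5.08 and 95.1 ± 13.0 CPM (SD, n = 4; log2 fold change 0.08, standard error 0.10, edgeR adjusted p = 0.721), and -0.01 within lane tag 2.

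**Figure D5:**
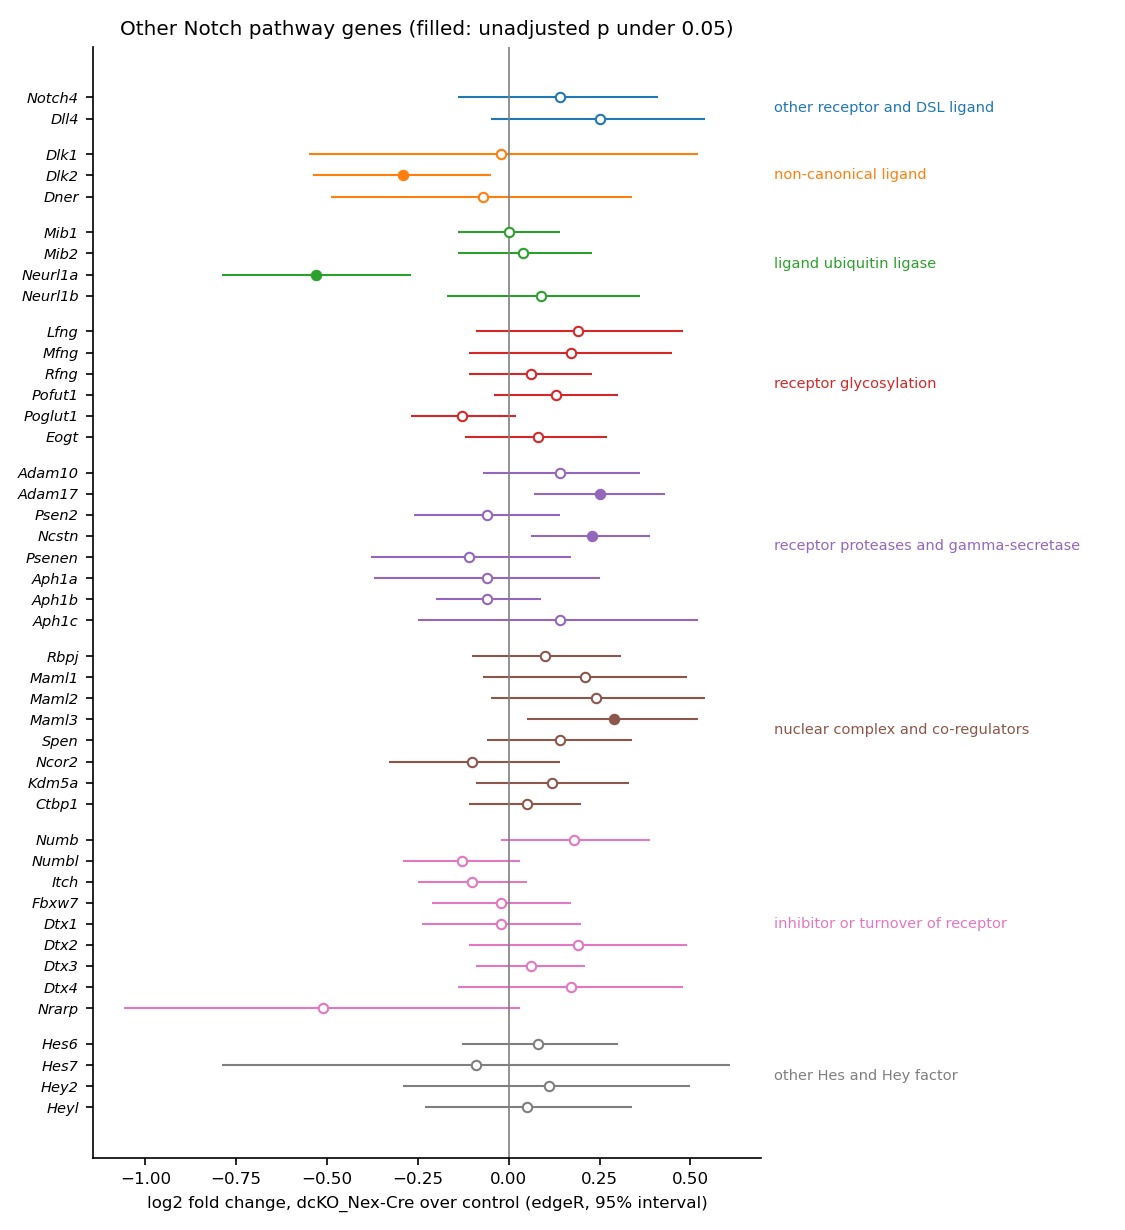
Log2 fold change, dcKO_Nex-Cre over control, of the 44 other pathway genes with 95% intervals from edgeR, grouped and colored by role. Filled points have an unadjusted p under 0.05. *Neurl1a* (-0.53) and *Dlk2* (-0.29) are the filled points on the lower side, and those on the higher side lie between 0.23 and 0.29.

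Finally, the genes closest in pattern to 4 of the Notch genes were listed by the correlation of log2 CPM over the 8 libraries, each group centered on its own mean, among 11736 genes with a mean of at least 5 CPM. For *Notch1* these were *D030068K23Rik*, *Spata13* and the collagen receptor *Ddr1* (Pearson r 0.98 each). For *Notch3* they were *Slc24a3*, *Cdh13* and *Ipcef1* (0.99 each), for *Jag1* *Celsr1*, the endothelial receptor *Flt1* and the cohesin subunit *Smc3* (0.99 each), and for *Hes5* *Phyh*, *Pde5a* and *Ogg1* (0.94, 0.93 and 0.92). The 8 points share their libraries, 2 of which stood apart, so these values describe the libraries and carry no p.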

How the data were processed

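RNA-seq of the P1 cortex comprised 4 control and 4 dcKO_Nex-Cre libraries. The labels give control or mutant and the age, and the Cre line was taken from the study's methods. Total RNA of whole tissue was used with the TruSeq RNA v2 kit, which does not mark strand. The values deposited by the authors are raw read counts per gene with Ensembl identifiers, not normalized, made on mm10 by the processing notes, and the aligner and counting program are not given in the sources used here. Positions, strands and exonic lengths come from GENCODE M21 (GRCm38). Lane tags were read from file names and set no group.

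Counts were filtered with filterByExpr, scaled by TMM and compared with edgeR 4.0.16 (R 4.3.3; quasi-likelihood F test, robust, two-sided, no covariate), with Benjamini-Hochberg adjustment over 16287 genes and a threshold of 0.05. The biological coefficient of variation was 0.143. For the CPM of single genes, an exact permutation test (two-sided, 70 regroupings) was added. No set test was run. Intervals from edgeR cover the spread between libraries, counting error included. The fit was also run on simulated counts, whose outcome is not given here. These had a common dispersion and no outlying libraries or lane differences, so they do not cover these features of the data.

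The alternatives were DESeq2 1.42.0 (Wald test, and its size factors in edgeR), limma-voom (limma 3.58.1), no filter, at least 10 counts in every library, the replicate number as a block, lane tag 2 only, and each library left out in turn. Leaving out control replicate 2 and dcKO_Nex-Cre replicate 4 together was chosen after seeing the data.

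The 10 genes, the 46 other pathway genes and the 12 marker lists were chosen with earlier results of these data known. Named are the 10 genes, the pathway genes past the threshold, the gene of smallest unadjusted p in each role group, the 3 genes most correlated with *Notch1*, *Notch3*, *Jag1* and *Hes5*, and the targeted genes. Others named were chosen after their values were seen. Some items are not reported here. No columns of fold changes by the authors were used.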

Additional observations from a re-analysis of the deposited data

Results flagged for a closer look

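In 68 groups of 4 libraries (the levels of the Notch genes named and the summed marker levels), the highest or lowest library was compared with the others by Dixon's criterion, and 5 groups were beyond it. Chance flags about 1 in 20 groups, or 3.40 of 68. *Hes5* was at 15.5 CPM in control replicate 4, where the other controls were at 12.3 to 12.8 CPM. *Neurl1a* had 19.1 CPM in replicate 4 of the mutant, whose other libraries had 25.5 to 26.2 CPM. In control replicate 2 the summed oligodendrocyte precursor markers were at 173 CPM (244 to 252 CPM in the other controls) and the summed endothelial markers at 112 CPM (161 to 168 CPM). Choroid plexus markers summed to 547 CPM in dcKO_Nex-Cre replicate 2 and to 3.48 to 13.2 CPM in the other mutant libraries. They spread from 14.7 to 1315 CPM in the controls, and *Kcnj13* of this list was at 0 in 1 control library.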

How the results depend on the processing

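Over the 10 Notch genes and 16 alternatives, 139 of 160 fold changes kept their direction and their side of the adjusted threshold, 14 changed sign and 7 passed the threshold. *Notch1*, *Dll1* and *Jag1* did neither under any alternative. With DESeq2's Wald test 1 of the 10 genes passed (*Dll3*, 0.51), as did 1 of the other pathway genes (*Neurl1a*), and all genes gave 206 higher and 258 lower in place of 61 and 83. Without the filter 1 pathway gene passed (*Neurl1a*), with 109 higher and 150 lower genes in all. Within lane tag 2, 6 of the 10 genes (3 with all libraries) and 10 pathway genes (5 with all libraries) had an unadjusted p under 0.05. The share of all tested genes was 23.5% (13.6% with all libraries). By adjusted p, 140 genes were higher and 108 lower in all. Groups within lane tag 2 did not overlap for 7 of the 10 genes and for 35.9% of all tested genes. *Notch3* was then at 0.08, *Hes1* at -0.12, *Hey1* at 0.04 and *Hes6* at -0.01. *Hes1*, at 0.00137 with all libraries, was also at -0.00425 with at least 10 counts required and at -0.02 with limma-voom.

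Without control replicate 2 and dcKO_Nex-Cre replicate 4, 3 of the 10 genes passed the adjusted threshold (*Notch2* 0.29, *Dll3* 0.46, *Jag2* -0.31) and 6 the unadjusted one. Of the pathway genes, 4 and 15 passed these thresholds. By adjusted p, 896 genes were higher and 898 lower in all. Of all 16330 tested genes, 2427 had an unadjusted p under 0.05 as higher and 2211 as lower. Groups did not overlap for 6 of the 10 and for 33.7% of all tested genes. *Hes1* was at -0.07, *Hes5* at -0.01 and *Hes6* at -0.04. With single libraries left out, the 10 genes gave 0 to 3 adjusted calls, 1 to 5 unadjusted ones and 2 to 5 without overlap. The pathway genes gave 0 to 4 adjusted and 3 to 12 unadjusted calls. All genes gave 9 to 659 higher and 9 to 619 lower adjusted calls. The highest counts of calls among the 10 genes came without dcKO_Nex-Cre replicate 4. In that fit 2364 of all 16539 tested genes had an unadjusted p under 0.05 as higher and 2296 as lower. Groups then did not overlap for 27.2% of all tested genes. Log2 fold changes ranged over 0.08 to 0.25 (*Notch1*), 0.05 to 0.17 (*Dll1*), 0.18 to 0.31 (*Notch2*), -0.17 to 0.04 (*Notch3*), 0.46 to 0.57 (*Dll3*), -0.37 to -0.17 (*Jag2*), -0.05 to 0.06 (*Hes1*), 0.02 to 0.14 (*Hes5*), -0.09 to 0.03 (*Hey1*) and -0.01 to 0.14 (*Hes6*). The causes of these differences were not tested.

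Replicate numbers were shared by the groups without a stated pairing. Deviations of same-numbered libraries correlated at 0.126, 0.018, 0.135 and -0.138, and no library correlated best with its own number. With the replicate number as a block, 0 of the 10 genes passed the adjusted threshold, where 21 genes were higher and 33 lower in all. *Dll3* was at 0.51 (edgeR adjusted p = 0.241) and was the only one of the 10 with an unadjusted p under 0.05. The share of all genes at that unadjusted threshold is not given here. The fold change of *Nrarp* rests on 29 to 82 counts per library.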

Other observations

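Of the marker lists not described beside a Notch gene, the 5 cycling cell markers all had means above the control (median log2 fold change 0.260) with none past edgeR's adjusted threshold, and their sum was 144 to 180 CPM in the control and 157 to 258 CPM in the mutant cortex. Of 6 microglia markers, 4 had means above and 2 below the control. The complement gene *C1qb* passed (log2 fold change 0.46, edgeR adjusted p = 0.0422), whereas the purinergic receptor *P2ry12* was at -0.57 (edgeR adjusted p = 0.0596), with every mutant library below every control. Of the 7 excitatory neuron markers, 2 were above and 5 below the control, with none past the threshold. The 4 meningeal fibroblast markers, 4 blood markers and the 2 of 4 choroid plexus markers that passed the filter also held no call.

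Some pathway genes share exonic sequence with a gene on the other strand, whose reads this library kit cannot separate by strand. The largest overlaps by share of exonic length were *Nrarp* with *Gm38287* (79.4%), *Hes5* with *Gm20421* (31.8%) and *Dll1* with *A930024N18Rik* (20.6%). *Gm38287* and *Gm20421* had a mean of 0.0 counts over the 8 libraries. As the counting program is not given, it is not known whether reads from the shared stretches were counted or dropped. *Ncstn*, with a mean of 2285.1 counts, overlaps *Copa*, with 8496.6, over 195 bases.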
